A study of Mus musculus with 16 samples.

Results

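Livers of mice given perfluorooctanoic acid (PFOA) on a control diet (CD) were set directly against livers of mice fed a high-fat diet (HFD) with vehicle. The members are the libraries labelled CD + PFOA (CD_PFOA) and HFD + Vehicle (HFD_vehicle), 4 mice each and 8 of the 16 libraries of the series. They were taken by their labels, and this pair of groups was chosen with earlier results of these data known. Both groups were also set beside CD_vehicle, 4 mice on control diet with vehicle. All were C57BL/6 mice, aged 29 to 30 weeks, on their diet for 16 weeks before and 8 weeks during treatment. PFOA in CD_PFOA was given without the high-fat diet, and HFD_vehicle had the diet without PFOA. The 2 groups therefore differed in diet and in compound at once, and the share of each in a direct difference cannot be told apart. The sources used here give neither the sex of the mice, nor the PFOA dose, nor the contents of the diets.

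PFOA is a long-lived perfluorinated fatty acid analogue that collects in liver. In rodents it activates PPARA, the nuclear receptor that switches on fatty acid oxidation in peroxisomes, mitochondria and microsomes, and it also activates the drug-sensing receptor CAR. A high-fat diet loads the hepatocyte with dietary fat and in time can draw in lipid-associated macrophages and activate matrix-producing cells. Cholesterol holds down the sterol-sensing SREBP factors, but the cholesterol content of this diet is not known here. Both exposures can enlarge the liver and fill it with lipid droplets, but liver weight and liver fat of these mice were not examined here.

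Liver RNA was counted per gene, and 14998 of 53465 genes had enough counts to be tested. The 8 libraries held 14456524 to 25671905 counts. Levels are counts per 1000000 counts of the scaled library (CPM), given per mouse or as mean ± SD with n = 4 mice in every group. Differences are log2 values with their standard error (SE) from 1 edgeR quasi-likelihood fit, with p-values adjusted by Benjamini-Hochberg over all 14998 genes, and a gene was called at an adjusted p under 0.05. Hepatocyte markers were high in every library, and their sum was lower in CD_PFOA (71949 to 88075 CPM) than in HFD_vehicle (90910 to 106201 CPM) and CD_vehicle (119214 to 152215 CPM), with no overlap. The share of mitochondrially encoded counts was 14.7% to 17.8% in CD_PFOA and 10.8% to 13.2% in HFD_vehicle, and its part in the results was not tested. In CD_vehicle, replicate 1 held high folding chaperone and acute phase transcripts (Saa1 at 1255 CPM, the others at 20.7 to 37.25), and replicate 4 held B cell transcripts (651 CPM summed, median of the group 29.6). These libraries enter differences from CD_vehicle. In the direct difference they enter only the filter on low counts, the scaling and the estimate of the spread. Against CD_vehicle, 11.8% of all genes were called higher and 12.6% lower in CD_PFOA, and 5.19% and 5.21% in HFD_vehicle. Counts of listed genes against CD_vehicle below have these shares as their background.

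The 2 kinds of liver differed in 3012 genes, 20.1% of those tested. Of these, 1569 (10.5%) were higher in CD_PFOA and 1443 (9.62%) were higher in HFD_vehicle, and 467 (3.11%) and 476 (3.17%) of the genes tested were called at a difference of at least 2-fold. The 10.5% and 9.62% are the background for the counts of listed genes in this comparison below. Of the 10 largest rises among named genes, 6 had 0 counts in HFD_vehicle: Otop1, a proton channel, Aqp3, a water and glycerol channel, Vmn2r3, Pla2g4f, Gabrg1 and Kcnq3. The 10 also hold Fabp3, a fatty acid binding protein of heart and muscle, and Cyp4a31, a fatty acid hydroxylase. Among the 10 largest falls were Serpina12, which encodes the adipokine vaspin, Lrtm1, Ntrk2, the receptor for brain-derived neurotrophic factor, and Ephb2, an ephrin receptor. Scaling by library totals in place of TMM moved the median of all genes from −0.00 to −0.13 and the calls to 975 higher and 2209 lower, so that 30.6% rather than 52.1% of calls were higher in CD_PFOA. In whole tissue, fewer cells of a type and less RNA per cell cannot be told apart. On the first principal component of the 8 libraries, with 41.1% of the variance, HFD_vehicle lay at −56 to −42.6 and CD_PFOA at 36.9 to 56.6. The second, with 15.4%, ran from CD_PFOA replicate 1 at −64.6 to CD_PFOA replicate 3 at 44.8, with HFD_vehicle between them. The plot of difference against level shows how far the fatty acid oxidation genes stood from the bulk of genes, at high expression.

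**Figure D1:**
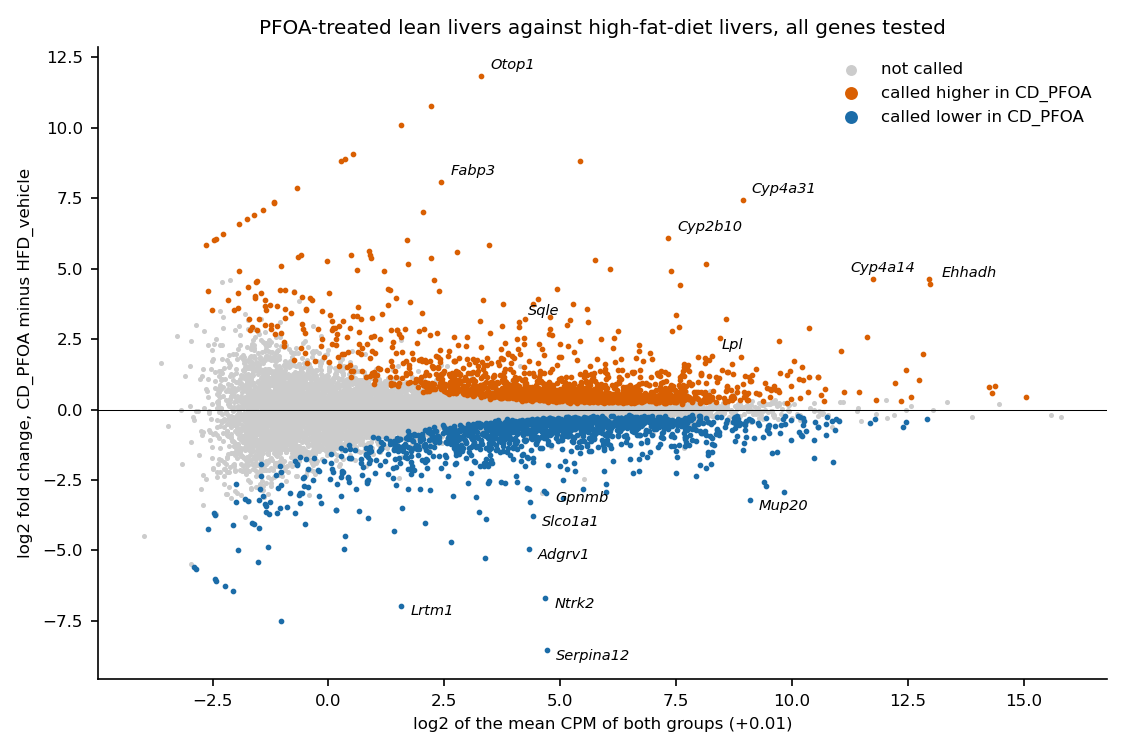
Each point is 1 of the 14998 genes tested: the horizontal axis is its mean level over the 8 libraries (log2 CPM) and the vertical axis its difference, CD_PFOA minus HFD_vehicle (log2), with called genes coloured. Ehhadh and Cyp4a14 combine a high level with differences of 4.45 and 4.62, and Serpina12 lies lowest among the named genes at −8.54.

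Peroxisomal fatty acid oxidation divided the exposures. Of 22 listed genes, all tested, 19 were higher in CD_PFOA and 1 was lower, with a median difference of 1.36 beside −0.00 over all genes. Ehhadh encodes the bifunctional enzyme of peroxisomal beta-oxidation and is a classical PPARA target (chr16:21761287-21787807, minus strand, as the other gene positions from GENCODE M21 on GRCm38). It stood at 18011, 14115, 14096 and 15410 CPM in the 4 CD_PFOA livers and at 798, 573, 734 and 709 CPM in the HFD_vehicle livers. The groups lay far apart, and each was narrow. The difference was 4.45 ± 0.15 (log2 ± SE), 21.9-fold (edgeR, adjusted p = 2.40e-13). HFD_vehicle did not differ from CD_vehicle by the test for this gene (0.17 ± 0.13), whose 4 control livers held 498, 698, 763 and 536 CPM. Abcd3, a transporter of the peroxisomal membrane, had 1627 ± 68.1 CPM against 493 ± 35.5, 3.30-fold higher.

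In mitochondria, 22 of 23 listed genes of beta-oxidation and ketone body synthesis were higher in CD_PFOA and none was lower, with a median difference of 0.94. Hadhb, a subunit of the trifunctional protein, stood at 76.6, 69.5, 75.3 and 76.1 CPM against 28.3, 25.2, 23.4 and 25.2 CPM. The groups did not overlap, and the ratio was 2.91 (1.54 ± 0.09, edgeR adjusted p = 4.08e-10). Acadl, the long-chain acyl-CoA dehydrogenase, had 596 ± 20.0 CPM against 246 ± 13.6, and the HFD_vehicle level was that of CD_vehicle within the spread (249 ± 10.2). Slc22a5, which imports carnitine, was 4.72-fold higher in CD_PFOA (59.6 ± 11.8 against 12.6 ± 1.21 CPM). Pdk4, which shuts pyruvate out of the citric acid cycle when fat is burned, stood at 464.5, 296, 269 and 286 CPM against 36.3, 39.0, 21.5 and 31.3 CPM. The highest CD_PFOA value belonged to replicate 1, and all 4 lay above every HFD_vehicle value, for a difference of 3.36 ± 0.31 (10.2-fold, edgeR adjusted p = 2.39e-07).

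Microsomal omega-oxidation, which starts fatty acid breakdown from the methyl end, moved in both directions: 8 of 12 listed genes were higher in CD_PFOA and 2 were lower, with a median of 2.19. Cyp4a14 stood at 17326, 14023, 14089 and 15544 CPM against 664, 453, 853 and 505 CPM. Every CD_PFOA liver exceeded every HFD_vehicle liver many-fold, and the fitted difference was 4.62 ± 0.19 (24.7-fold, edgeR adjusted p = 1.99e-12). Its relative Cyp4a10 was 24.9-fold higher (4.64 ± 0.18). Cyp4a31 held 868 to 1103 CPM against 4.74 to 6.91 CPM, 172-fold higher (edgeR, adjusted p = 2.96e-12). Cyp4f14, a leukotriene and fatty acid hydroxylase, went the other way, at 15.4, 12.8, 13.7 and 17.1 CPM against 130, 125, 104 and 92.6 CPM. It was 7.64-fold lower in CD_PFOA, and it was called below CD_vehicle in both groups, by −3.84 and −0.91. The Cyp4a genes, like the Acot genes below, are near copies of each other, so reads could be split between them by the counting and single members are uncertain.

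Among 24 other PPARA-responsive genes, 18 were higher in CD_PFOA and none was lower, with a median of 1.30. Acot1, a cytosolic acyl-CoA thioesterase, stood at 579, 534, 491 and 593 CPM against 15.4, 20.2, 14.6 and 12.03 CPM, 35.4-fold higher. Retsat, retinol saturase, had 2315 ± 223.9 CPM against 316 ± 53.1, 7.34-fold higher. Fgf21, a hormone that the fasted liver releases, had 25.4, 23.4, 12.7 and 26.6 CPM against 8.92, 9.23, 8.26 and 6.09 CPM. The CD_PFOA livers were all above the HFD_vehicle livers, with replicate 3 closest, and the difference was 1.44 ± 0.37 (2.72-fold, edgeR adjusted p = 0.00796). For the 4 groups of fatty acid oxidation genes taken in the same order, the counts against CD_vehicle were 17, 21, 8 and 20 higher in CD_PFOA, where 11.8% of all genes were called higher, and 0, 1, 1 and 2 higher in HFD_vehicle, where 5.19% of all genes were. The 0 was also 0 by DESeq2, with 2 peroxisomal genes higher at an unadjusted p under 0.05. The HFD_vehicle counts depended on the control mice and the scaling: they were 1, 2, 1 and 4 without CD_vehicle replicate 1, 0, 2, 1 and 4 without replicate 4, and 5, 8, 1 and 6 with library totals in place of TMM. Without CD_vehicle replicates 2 or 3, or without HFD_vehicle replicate 4, the mitochondrial count was 0. Called lower than CD_vehicle, in the same order, were 3, 0, 4 and 1 in HFD_vehicle, where 5.21% of all genes were. In CD_PFOA they were 3, 0, 2 and 0, where 12.6% of all genes were. Over the leave-outs, the HFD_vehicle falls ran from 1 to 5 for the peroxisomal list and 2 to 5 for omega-oxidation.

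A few of the genes with the largest rises, chosen by the size of their rise, stood at or near 0 in HFD_vehicle livers. Of 8 skeletal muscle markers, 7 were too low to be tested and the other was not called (−0.08). Otop1 had 21.3, 16.6, 21.3 and 19.5 CPM in CD_PFOA and 0 counts in all HFD_vehicle and CD_vehicle libraries. Set against a floor of 3 counts over the group, it was at least 568-fold higher. Aqp3 had 6.75 to 13.8 CPM and 0 counts in HFD_vehicle, a ratio of at least 268. Fabp3 had 17.9, 6.91, 5.69 and 12.2 CPM against 3 counts in all, each of them in HFD_vehicle replicate 2, a ratio of 309 with a 95% counting interval of 105.5 to 1501. Ucp3, a mitochondrial uncoupling protein of muscle, had 11.71, 7.83, 6.62 and 6.30 CPM against 0, 0, 0.200 and 0.0766 CPM (edgeR, adjusted p = 9.59e-08).

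Of 15 genes of fatty acid uptake and lipoprotein lipase, 8 were higher in CD_PFOA, none was lower and 7 were not called, with a median of 0.38. Slc27a1, the fatty acid transport protein of muscle and fat, stood at 125, 101, 101 and 92.6 CPM against 2.16, 2.65, 2.27 and 3.41 CPM. That was 39.6-fold (edgeR, adjusted p = 5.64e-13), while HFD_vehicle and CD_vehicle overlapped. Vldlr, which takes up triglyceride-rich lipoproteins, was 5.35-fold higher (72.5 ± 13.9 against 13.6 ± 1.91 CPM). Lpl, the lipase that frees fatty acids from those lipoproteins, was high in both exposures and higher in CD_PFOA, as 518, 487, 490 and 460 CPM against 115, 122, 112 and 176 CPM, with 29.1, 28.4, 30.1 and 54.3 CPM in CD_vehicle. The 3 groups did not overlap. CD_PFOA exceeded HFD_vehicle 3.73-fold, and the 2 exposures exceeded CD_vehicle 13.8-fold and 3.69-fold. Cd36, the scavenger receptor for fatty acids, kept the same order of groups, as 849, 651, 760 and 891 CPM, 336, 310, 357 and 359 CPM, and 184, 188, 258 and 303 CPM.

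**Figure D2:**
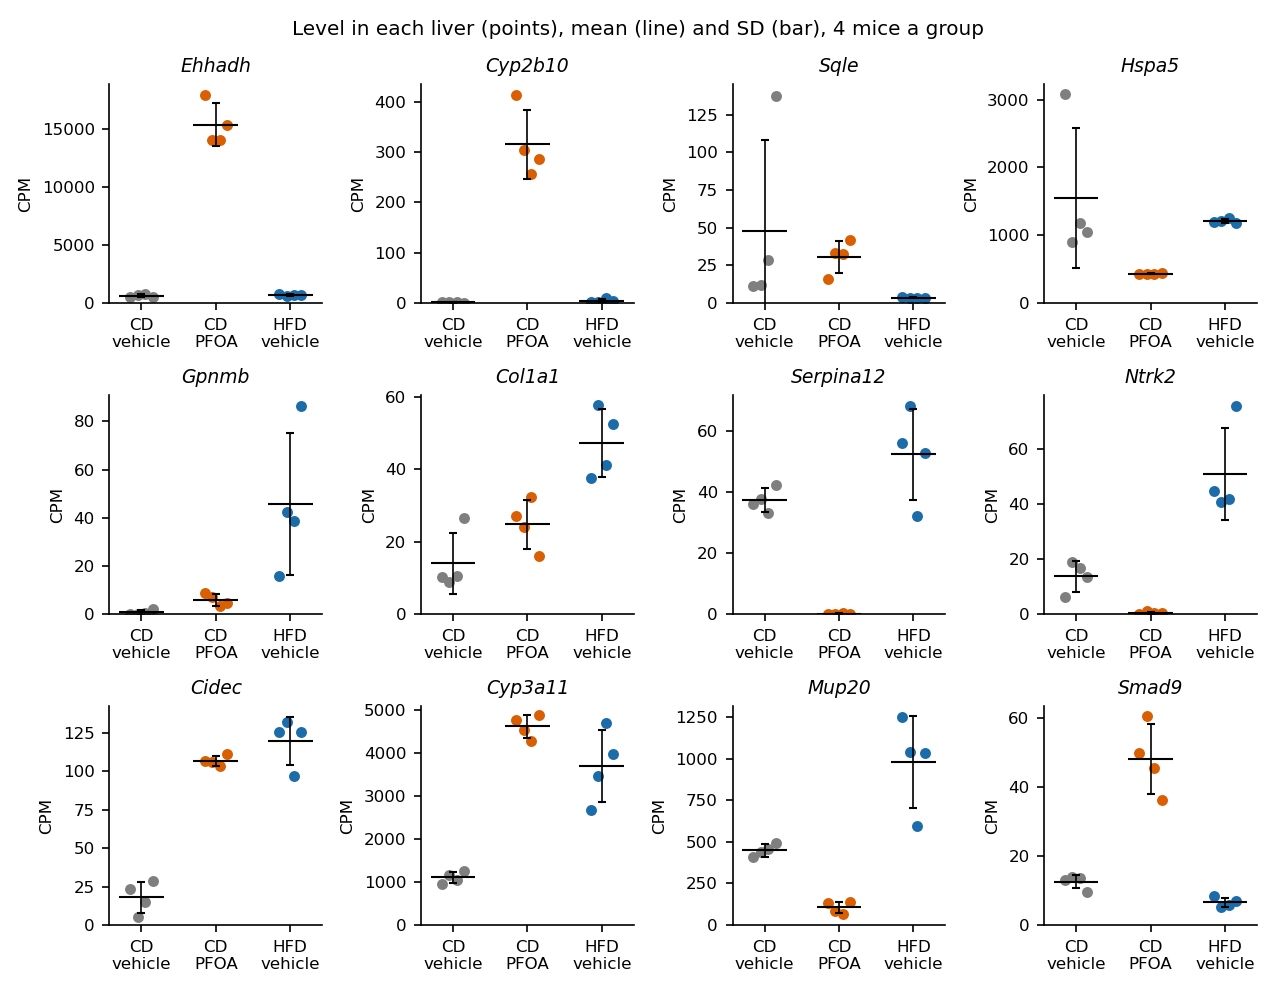
Levels of 12 genes in each liver (CPM, linear axes from 0) in CD_vehicle, HFD_vehicle and CD_PFOA; points are mice, the line is the mean of 4 and the bar its SD. Ehhadh, Cyp2b10 and Smad9 are high in CD_PFOA, Gpnmb, Col1a1 and Ntrk2 in HFD_vehicle, Hspa5 and Serpina12 are low in CD_PFOA, and Cidec and Cyp3a11 are raised in both.

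Drug-metabolising genes that answer to CAR and PXR were higher in CD_PFOA in 13 of 23 cases and lower in none, with a median of 0.56. Cyp2b10 (chr7:25897620-25926624, plus strand), the standard reporter of CAR activity in mouse liver, stood at 413, 304, 257 and 286 CPM against 2.47, 2.91, 9.99 and 4.02 CPM. The difference was 6.08 ± 0.39, 67.8-fold (edgeR, adjusted p = 1.04e-09). The diet alone also lay above CD_vehicle for this gene (1.13, 1.51, 1.87 and 0.214 CPM) by 1.99 (edgeR, adjusted p = 0.00632), a call lost with only the 2 groups in the fit. Cyp2c55 was 6.27-fold and Cyp2c29 5.89-fold higher in CD_PFOA than in HFD_vehicle, the latter with 5392 ± 1147 against 915 ± 225.3 CPM. Abcc4, an exporter of bile acids and drug conjugates, stood at 102, 90.6, 68.6 and 85.9 CPM against 7.99 to 13.7 CPM, with 1.33 to 7.48 CPM in CD_vehicle.

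Cyp3a11, the main PXR target of mouse liver, was high in both exposures. Its levels were 4775, 4523, 4284 and 4879 CPM in CD_PFOA, 2679, 3454, 4687 and 3966 CPM in HFD_vehicle, and 951, 1161, 1041 and 1267 CPM in CD_vehicle. Both exposures lay wholly above CD_vehicle and overlapped with each other. They exceeded CD_vehicle 4.18-fold and 3.35-fold, and the direct difference was 0.32 ± 0.13 (95% interval 0.05 to 0.59, edgeR adjusted p = 0.0956). Without HFD_vehicle replicate 3 it was 0.45 and was called.

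Cholesterol synthesis transcripts were low in HFD_vehicle and higher in CD_PFOA. Of 24 listed genes, 14 were higher in CD_PFOA than in HFD_vehicle and none was lower, with a median of 0.73. Against CD_vehicle, 22 were lower in HFD_vehicle, where 5.21% of all genes were (median −1.19), and 6 in CD_PFOA (median −0.49). The last count depended on the control mice: it was 16 without CD_vehicle replicate 1 and 5 to 16 over all leave-outs, while the HFD_vehicle count kept to 21 to 23. The direct count was 10 to 15 when each of the 8 libraries was left out in turn, and 18 without CD_vehicle replicates 1 and 4.

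The promoter of Hmgcs1, an early enzyme of the pathway, is shown because it was the only 1 of 17 cholesterol genes with a RefSeq promoter in which the search for a sterol regulatory element (TCACNCCAC, either strand) found a match. The window is chr13:119690101-119690400 on the plus strand (GRCm38.p6), 300 bases around the gene start, and the capitals mark the match.
Hmgcs1: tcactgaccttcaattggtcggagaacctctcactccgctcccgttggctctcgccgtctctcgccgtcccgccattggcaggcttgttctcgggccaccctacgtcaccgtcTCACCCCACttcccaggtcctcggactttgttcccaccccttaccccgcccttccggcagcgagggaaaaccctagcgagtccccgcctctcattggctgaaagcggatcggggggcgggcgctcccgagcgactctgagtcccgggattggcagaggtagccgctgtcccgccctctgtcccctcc
The same letters occur in 1.24% of all 32851 RefSeq promoters. A CCAAT box (CCAAT, either strand), which binds NF-Y, was found in 16 of the 17 cholesterol gene promoters, against 37.4% of all promoters and 41.1% of genes with one. It was also common in 7 of 7 omega-oxidation and 15 of 17 folding gene promoters. It was less common in peroxisomal (10 of 16), mitochondrial (6 of 18), other PPARA-responsive (10 of 19) and CAR and PXR responsive (10 of 23) gene promoters. The sterol element was found in 3 of 23 promoters of CAR and PXR responsive genes. Hmgcs1 stood at 254, 241, 281 and 240 CPM in CD_PFOA and at 182, 145, 162 and 172 CPM in HFD_vehicle. The groups did not overlap, yet the difference of 0.62 ± 0.23 missed the threshold in the fit with all 16 libraries (edgeR, adjusted p = 0.0614), in which CD_vehicle was wide (140 to 521 CPM). Without CD_vehicle replicates 1 and 4 its adjusted p was 8.65e-06, and it was also called without the filter on low counts and with only the 2 groups in the fit.

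Sqle (chr15:59315077-59331192, plus strand) encodes squalene epoxidase, a control point of the late pathway. It stood at 16.2, 33.3, 32.3 and 41.6 CPM in CD_PFOA and at 4.17, 3.32, 3.40 and 3.30 CPM in HFD_vehicle, 8.66-fold apart (3.11 ± 0.62, edgeR adjusted p = 0.00117). CD_vehicle held 11.6, 12.1 and 28.7 CPM in 3 mice and 137.5 CPM in replicate 4. Without replicates 1 and 4 of that group, CD_PFOA differed from it by 0.59 (edgeR, adjusted p = 0.205) and HFD_vehicle by −2.52 (adjusted p = 2.62e-05). Lss, the cyclase that closes the sterol rings, was 2.38-fold higher in CD_PFOA (47.3 to 66.6 against 19.8 to 29.1 CPM). Hsd17b7 and Tm7sf2, late enzymes of the route, were 2.41-fold and 2.23-fold higher.

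Not every sterol-regulated gene followed. Insig1, which retains the SREBP precursors in the endoplasmic reticulum, was not called between the exposures (95% interval of the log2 difference −0.28 to 0.27), and both were called below CD_vehicle, by −0.79 and −0.78.

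Folding genes of the endoplasmic reticulum, the chaperones and disulfide isomerases that secretory proteins need, moved as a block. All 19 tested genes of this list were lower in CD_PFOA than in HFD_vehicle, where 9.62% of all genes were, with a median of −0.96. The direct count was 17 to 19 over the leave-outs. All 19 were also lower in CD_PFOA than in CD_vehicle (12.6% of all genes were called lower there), with and without CD_vehicle replicates 1 and 4 and in each leave-out. HFD_vehicle was called different from CD_vehicle in 0 of 19 by edgeR and by DESeq2, with 1 higher and 1 lower at an unadjusted p under 0.05. Without CD_vehicle replicate 1, Herpud1 was called higher in HFD_vehicle (0.43, edgeR adjusted p = 0.0122). This was also so without CD_vehicle replicates 1 and 4 (0.38) and with library totals in place of TMM (0.49). Promoters of 3 folding genes are shown because the ER stress response element, the site through which ATF6 induces such genes, was found in 8 of the 17 genes on this list with a RefSeq promoter. It was searched on both strands as CCAAT, 9 bases of any kind and CCACG, so that each match holds a CCAAT box, and capitals mark it. Among all promoters of the same 300 bases, 0.119% (39 of 32851) held it. The windows on GRCm38.p6 are chr2:34771840-34772139 for Hspa5, chr15:88819396-88819695 for Creld2, where the match is on the minus strand, and chr12:17266339-17266638 for Pdia6, all printed on the plus strand.
Hspa5: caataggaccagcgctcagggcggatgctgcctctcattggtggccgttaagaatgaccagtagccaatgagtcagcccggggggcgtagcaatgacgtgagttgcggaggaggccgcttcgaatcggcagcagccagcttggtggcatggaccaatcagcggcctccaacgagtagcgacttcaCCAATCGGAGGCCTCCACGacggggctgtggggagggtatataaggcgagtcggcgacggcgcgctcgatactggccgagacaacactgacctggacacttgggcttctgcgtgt
Creld2: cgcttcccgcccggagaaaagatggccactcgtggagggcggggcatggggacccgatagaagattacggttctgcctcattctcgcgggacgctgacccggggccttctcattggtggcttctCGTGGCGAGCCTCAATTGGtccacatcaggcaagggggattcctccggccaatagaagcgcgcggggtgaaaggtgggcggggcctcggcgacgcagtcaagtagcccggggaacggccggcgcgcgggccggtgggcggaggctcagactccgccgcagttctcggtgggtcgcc
Pdia6: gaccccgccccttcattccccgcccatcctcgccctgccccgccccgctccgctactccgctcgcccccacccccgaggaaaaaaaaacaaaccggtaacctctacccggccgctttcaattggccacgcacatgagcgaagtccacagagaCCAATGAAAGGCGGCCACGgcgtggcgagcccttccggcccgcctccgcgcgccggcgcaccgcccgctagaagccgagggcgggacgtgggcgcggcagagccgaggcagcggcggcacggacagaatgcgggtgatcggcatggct
The other 5 were Calr, Canx, Dnajc3, Ero1b and Hsp90b1, of which Ero1b was not matched in the count table. A match in these letters is a description of the sequence and was not tested for binding.

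Hspa5 encodes BiP, the master chaperone of the endoplasmic reticulum. Its 4 CD_PFOA livers lay within 422, 425, 429 and 441 CPM and its 4 HFD_vehicle livers within 1192, 1209, 1247 and 1179 CPM. Each group was tight and the gap between them wide, 2.81-fold (−1.49 ± 0.28, edgeR adjusted p = 7.29e-04). CD_vehicle had 3089 CPM in replicate 1 and 897, 1178 and 1049 CPM in the others. Without replicates 1 and 4 of CD_vehicle, CD_PFOA was below it by −1.28 (edgeR, adjusted p = 3.55e-06), and HFD_vehicle differed by 0.22 (adjusted p = 0.439).

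Creld2, a folding factor induced by stress in that compartment, had 14.6, 16.4, 13.1 and 15.7 CPM against 53.1, 57.7, 49.3 and 54.7 CPM, 3.59-fold lower (edgeR, adjusted p = 0.0119). Pdia6, a disulfide isomerase, had 115, 105, 116 and 114 CPM against 249, 300, 261 and 262 CPM, 2.38-fold lower. Herpud1, which serves the degradation of misfolded proteins, was 2.70-fold lower and Manf, a secreted stress factor, 3.41-fold lower. No HFD_vehicle liver fell to the level of any CD_PFOA liver for these 4 genes.

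**Figure D3:**
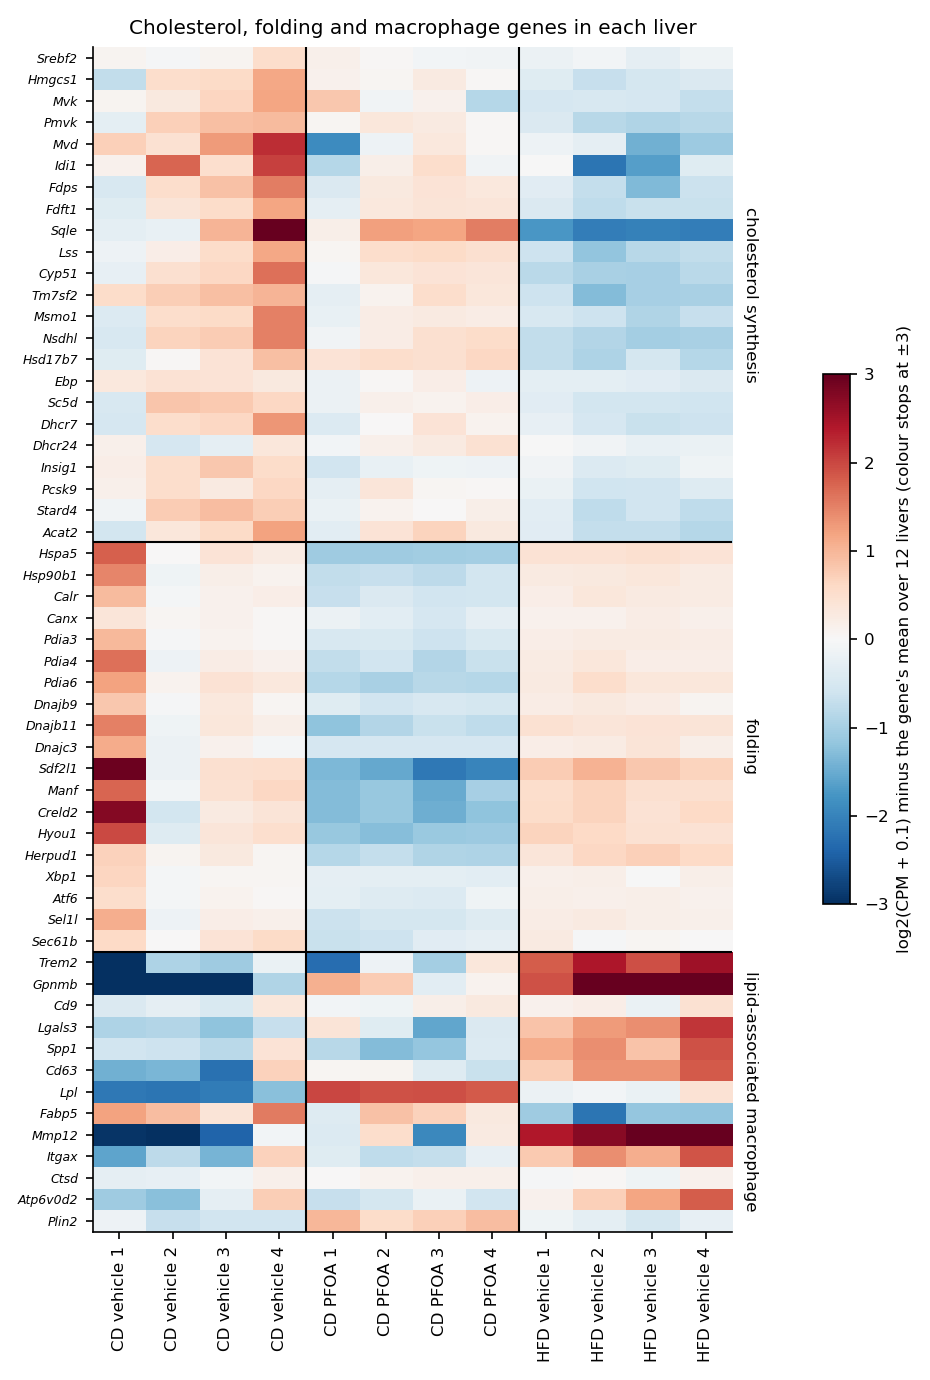
Level of each gene in each of the 12 livers of CD_vehicle, HFD_vehicle and CD_PFOA, as log2(CPM + 0.1) minus the gene's mean over the 12, for genes of the cholesterol synthesis, folding and lipid-associated macrophage lists. Cholesterol genes are low across HFD_vehicle, folding genes low across CD_PFOA and high in CD_vehicle replicate 1, and most macrophage genes high across HFD_vehicle.

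Genes of lipid-associated macrophages, which gather around dying fat-laden hepatocytes, were mostly higher under the diet. Of 13 listed, 8 were higher in HFD_vehicle and 3 in CD_PFOA, with a median direct difference of −1.60. The 3 were Lpl, Plin2 and Fabp5, which hepatocytes also express. Gpnmb (chr6:49036546-49070929, plus strand), a glycoprotein of such macrophages, stood at 8.81, 7.12, 3.33 and 4.46 CPM in CD_PFOA, 15.9, 42.3, 38.5 and 86.4 CPM in HFD_vehicle, and 0.0834, 0, 0.281 and 2.18 CPM in CD_vehicle. The 3 groups did not overlap. CD_PFOA was 7.72-fold below HFD_vehicle (−2.95 ± 0.61, edgeR adjusted p = 0.00172), and both were above CD_vehicle, by 3.19 and 6.13.

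Trem2, the lipid-sensing receptor of these cells, had 0.208, 1.24, 0.632 and 1.80 CPM against 5.14, 7.91, 5.60 and 8.66 CPM, 7.0-fold lower. Unlike Gpnmb, it overlapped with CD_vehicle in CD_PFOA (0.0417 to 1.20 CPM). Mmp12, the macrophage elastase, had 5.57, 10.7, 1.86 and 8.997 CPM against 39.5, 50.1, 60.8 and 88.9 CPM, 8.80-fold lower (edgeR, adjusted p = 0.00140). Spp1, osteopontin, which cholangiocytes also make, had 34.3, 24.9, 27.4 and 45.8 CPM against 132, 160, 111 and 228.7 CPM, 4.78-fold lower.

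General macrophage and Kupffer cell markers were lower in CD_PFOA in 6 of 18 cases and higher in none, with a median of −0.48. Over the leave-outs, 4 to 7 were lower and 0 or 1 higher. Their summed level was 345 to 748 CPM in CD_PFOA (median 575), 751 to 999 CPM in HFD_vehicle (median 808) and 449 to 722 CPM in CD_vehicle (median 472), and none of the markers was at 0 in any of these groups. C1qb, a complement subunit that Kupffer cells make, had 45.7, 42.2, 20.9 and 29.7 CPM against 61.3, 73.4, 63.0 and 84.9 CPM, 2.04-fold lower (edgeR, adjusted p = 0.00261). Cd68, a lysosomal marker, was 1.99-fold lower (edgeR, adjusted p = 0.0150), a call lost without HFD_vehicle replicate 4 (−0.86) or CD_PFOA replicate 3 (−0.85). Against CD_vehicle, 8 of these markers were higher in HFD_vehicle and 0 in CD_PFOA by edgeR, the latter with 1 by DESeq2 and 2 at an unadjusted p under 0.05. Without CD_vehicle replicate 4 the second count was 4, and without CD_vehicle replicate 2 the first was 3.

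Extracellular matrix genes were lower in CD_PFOA than in HFD_vehicle in 16 of 29 cases and higher in 1, with a median of −0.74. Lum, the collagen-binding proteoglycan lumican, had 5.86, 3.48, 5.31 and 4.62 CPM against 16.9, 19.5, 14.1 and 14.1 CPM, 3.35-fold lower (edgeR, adjusted p = 2.41e-04). Col1a1, a chain of type I collagen, stood at 26.9, 24.1, 32.2 and 16.0 CPM against 37.5, 57.7, 41.1 and 52.4 CPM. The groups did not overlap, but the difference of −0.93 ± 0.27 (edgeR, adjusted p = 0.0181) lost its call without HFD_vehicle replicate 2 or 4 or CD_PFOA replicate 4, when it was −0.82, −0.88 and −0.77. Against CD_vehicle, 19 matrix genes were higher in HFD_vehicle, where 5.19% of all genes were, and 7 in CD_PFOA, where 11.8% of all genes were. The count of 16 was 10 without HFD_vehicle replicate 2 and 10 to 14 over the leave-outs, and the count of 7 ran from 3 without CD_PFOA replicate 1 to 12 without CD_vehicle replicate 4.

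Summed stellate cell markers were 553 to 757 CPM in CD_PFOA and 736 to 826 CPM in HFD_vehicle, and cholangiocyte markers 54.3 to 78.8 CPM and 144 to 280 CPM. Most of the cholangiocyte sum in HFD_vehicle was Spp1, given above. Only 1 of the 9 cholangiocyte markers tested was called between the 2 groups, lower in CD_PFOA. Of the 13 stellate cell markers, 3 were called lower in CD_PFOA (1 to 3 over the leave-outs) and none higher. Sinusoidal endothelial markers overlapped in their sum, at 472 to 634 CPM and 454 to 530 CPM. Of these 14, 5 were called higher in CD_PFOA (2 to 5 over the leave-outs), where 10.5% of all genes were, and 1 lower. None of these markers was at 0 in either group. Adipocyte markers summed to 857 to 1193 CPM in CD_PFOA and 2698 to 3530 CPM in HFD_vehicle, with no overlap. Most of that sum was Car3, a carbonic anhydrase (814 ± 129 against 2947 ± 355 CPM), while Fabp4 and Lipe were called higher in CD_PFOA and Adipoq, Lep, Retn and Plin1 were too low to be tested. The part of these marker lists in the differences of matrix and macrophage genes was not tested. Of 10 B cell, 12 T and NK cell and 7 neutrophil markers, 0 were called between the 2 groups by edgeR. By DESeq2, and at an unadjusted p under 0.05, 1 neutrophil marker was lower in CD_PFOA.

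**Figure D4:**
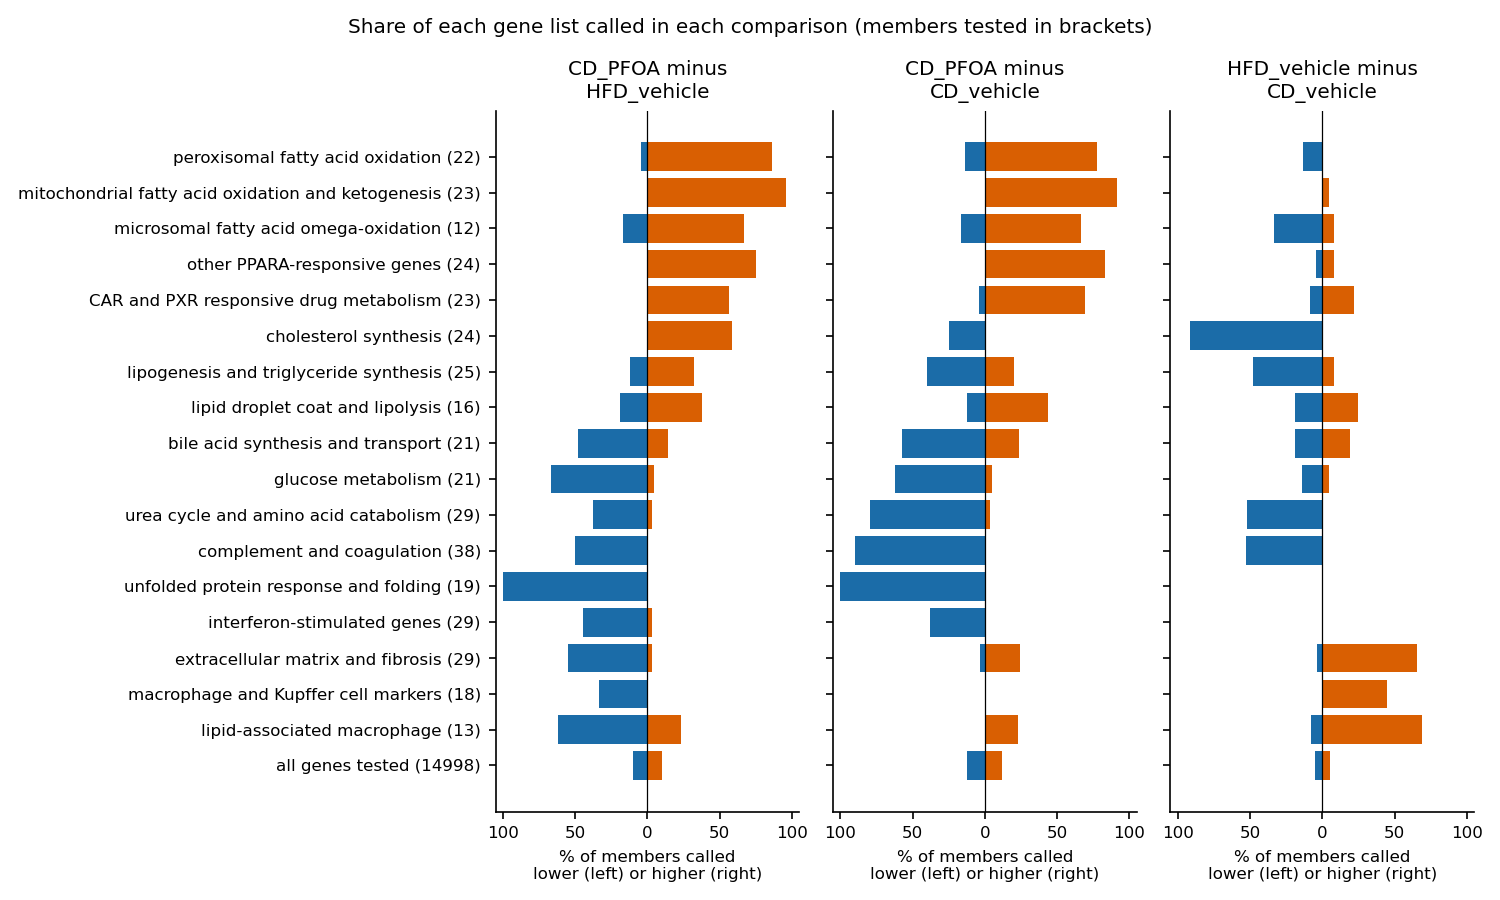
Share of each gene list (percent of tested members) called lower, to the left, and higher, to the right. The panels are the direct comparison and each exposure against CD_vehicle, and the share of all genes tested is on the bottom line. Fatty acid oxidation lists extend to the right in both comparisons that hold CD_PFOA and hardly at all for HFD_vehicle against CD_vehicle. In that last panel the omega-oxidation list extends further to the left than to the right. The folding list extends fully to the left in both comparisons that hold CD_PFOA.

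Transcripts that PFOA livers had all but lost headed the falls. Serpina12 (chr12:104028769-104044443, minus strand) stood at 0, 0.166, 0.295 and 0.0818 CPM in CD_PFOA and at 56.0, 68.2, 32.2 and 52.7 CPM in HFD_vehicle, beside 36.0, 37.7, 33.3 and 42.4 CPM in CD_vehicle. It was 373-fold lower than under the diet (−8.54 ± 0.43, edgeR adjusted p = 3.22e-11), and the diet did not move it by the test (0.49 ± 0.25). Lrtm1, a leucine-rich repeat membrane protein, had 0, 0, 0.127 and 0.0409 CPM against 3.78 to 8.86 CPM, and 8.24 to 40.5 CPM in CD_vehicle, so both exposures lay below control. Ephb2 and Adgrv1, an adhesion receptor, were high in HFD_vehicle. Ephb2 had 0.379 to 0.777 CPM against 12.2 to 26.5 CPM, with 0.321 to 6.49 CPM in CD_vehicle. Adgrv1 had 0.654 to 1.56 CPM against 24.7 to 51.7 CPM, with 1.84 to 3.84 CPM in CD_vehicle.

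Of 38 complement and coagulation genes, 19 were lower in CD_PFOA than in HFD_vehicle and none was higher, with a median of −0.35. The count of 19 was 14 to 17 when each of the 8 libraries was left out in turn. C9, the pore-forming complement component, had 70.3, 111, 69.2 and 69.9 CPM against 391, 462, 323 and 449 CPM, 5.07-fold lower (edgeR, adjusted p = 1.95e-06). F11, coagulation factor XI, had 5.23, 6.997, 7.88 and 11.2 CPM against 28.2, 27.3, 28.5 and 26.5 CPM, 3.53-fold lower. Against CD_vehicle, 34 of the 38 were lower in CD_PFOA and 20 in HFD_vehicle, so for this list the calls against CD_vehicle were all in 1 direction. Beside this list and those of glucose and amino acid metabolism, 5 of 10 hepatocyte markers were called lower in CD_PFOA than in HFD_vehicle and 1 higher (median −0.31). Against CD_vehicle, 8 of the 10 were lower in CD_PFOA and 6 in HFD_vehicle. Their part in the falls of these lists was not tested. Pigr, which carries immunoglobulin A into bile, was 5.91-fold lower in CD_PFOA (196 ± 25.7 against 1159 ± 100 CPM). Apoa4, an apolipoprotein that rises with hepatic fat, had 99.4, 145, 178 and 306 CPM against 1366, 1320, 851 and 1253 CPM, 6.58-fold lower.

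Of 21 genes of glucose metabolism, 14 were lower in CD_PFOA and 1 was higher, with a median of −0.64. The 1 that rose, Onecut1, is a hepatic transcription factor. Pck1, the gatekeeper of gluconeogenesis, had 585, 967, 990 and 712 CPM against 1342, 1707, 1615 and 1455 CPM, 1.88-fold lower (edgeR, adjusted p = 9.94e-04). Slc2a2, the hepatic glucose transporter, was 2.32-fold lower (187 ± 51.8 against 435 ± 29.4 CPM) and Fbp1, fructose bisphosphatase, 1.78-fold lower. HFD_vehicle and CD_vehicle overlapped for Slc2a2, with a difference of −0.05. Ppp1r3c, which steers glycogen synthesis, was 2.79-fold lower.

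Of 29 urea cycle and amino acid genes, 11 were lower in CD_PFOA and 1 was higher; without HFD_vehicle replicate 3 the first count was 7. Oat, ornithine aminotransferase, was 2.85-fold lower (117, 103, 230 and 195 CPM against 526, 353, 506 and 458 CPM). Cps1, which starts the urea cycle, was 1.67-fold lower (edgeR, adjusted p = 0.00740). Against CD_vehicle, 23 of the 29 were lower in CD_PFOA and 15 in HFD_vehicle, the second count running from 9 without CD_vehicle replicate 2 to 21.

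Bile acid genes had 10 of 21 members lower in CD_PFOA, where 9.62% of all genes were, and 3 higher, where 10.5% of all genes were. Slc10a2, the apical bile acid transporter, had 9.89, 21.2, 9.78 and 16.0 CPM against 67.8, 64.4, 51.8 and 76.4 CPM, 4.59-fold lower (edgeR, adjusted p = 9.67e-07). Nr0b2, the repressor SHP that bile acids induce through FXR, was 2.47-fold lower (27.5 ± 2.21 against 67.9 ± 6.12 CPM) and lay between the groups in CD_vehicle (45.5 ± 12.5 CPM). Cyp7a1, whose enzyme commits cholesterol to bile acids, overlapped, with 7.98, 17.97, 10.3 and 6.91 CPM against 10.5, 9.90, 33.6 and 4.71 CPM. Its difference of −0.43 had an interval of −1.33 to 0.48.

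Of 25 genes of lipogenesis and triglyceride synthesis, 8 were higher in CD_PFOA, where 10.5% of all genes were, with a median of 0.07. Another 3 were lower, where 9.62% of all genes were, and this count was 2 to 4 over the leave-outs. Scd2, a fatty acid desaturase that adult liver holds low, had 202, 325, 387 and 417 CPM against 39.5, 42.4, 35.3 and 58.2 CPM, 7.58-fold higher (edgeR, adjusted p = 1.41e-05). Mogat1, a monoacylglycerol acyltransferase, was 6.48-fold higher, with 39.2 to 55.1 CPM against 6.26 to 8.15 CPM. Me1, malic enzyme, which supplies NADPH, was 3.64-fold higher (750 ± 82.7 against 206 ± 52.9 CPM). Lpin1, a phosphatidate phosphatase, went down, as 44.6, 89.6, 170 and 125 CPM against 404, 396, 571 and 457 CPM, 4.26-fold lower. Scd1, the main desaturase of liver, differed by −0.20 (interval −0.48 to 0.09) and Fasn, fatty acid synthase, by −0.10 (interval −0.71 to 0.51).

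Lipid droplet proteins set the exposures apart by member. Plin2, the general droplet coat, stood at 1760, 1300, 1458 and 1699 CPM against 817, 723, 617 and 748 CPM, 2.14-fold higher in CD_PFOA, and HFD_vehicle overlapped with CD_vehicle (546.6 to 796.5 CPM). Plin4 was the opposite, at 13.5, 8.24, 12.7 and 10.1 CPM against 75.3, 84.0, 70.6 and 85.6 CPM, 7.08-fold lower (edgeR, adjusted p = 2.17e-06), and the diet raised it above CD_vehicle by 2.05. Pnpla2, the droplet triglyceride lipase, was 2.59-fold higher in CD_PFOA (209 ± 5.07 against 80.6 ± 8.04 CPM).

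The exposures also had much in common against CD_vehicle, with which both were compared. CD_PFOA differed from CD_vehicle in 3656 genes (24.4%) and HFD_vehicle in 1561 (10.4%). Called higher in both were 372 genes, 21.1% of the rises under PFOA and 47.8% of those under the diet. Called lower in both were 406, 21.4% and 51.9%. The 2 comparisons share their 4 control mice, so these counts describe and do not test a likeness. The direct comparison, which does not use the control means, called 88 of the 372 higher and 16 lower in CD_PFOA, and 268 were not called. Of the 406, it called 98 lower and 6 higher, and 302 were not called.

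Among the shared rises were droplet proteins of fat-storing cells. Cidec (chr6:113424634-113435760, minus strand), which fuses lipid droplets, had 107, 106, 103 and 111 CPM in CD_PFOA, 125, 132, 96.7 and 126 CPM in HFD_vehicle, and 23.4, 5.22, 15.1 and 28.6 CPM in CD_vehicle. Both exposures lay wholly above control and overlapped with each other, 5.90-fold and 6.62-fold higher than control. The direct difference was −0.17 ± 0.27, with a 95% interval of −0.73 to 0.40. Its relative Cidea differed directly by 0.29 (interval −0.48 to 1.06) and stood above control by 1.90 and 1.62. Ly6d, a surface antigen, had 57.7 to 103 CPM and 32.4 to 107 CPM against 1.05 to 25.7 CPM in CD_vehicle, and the direct interval was −0.71 to 1.24. Sdcbp2, a syntenin, had 2.19 to 5.05 CPM and 2.33 to 4.21 CPM, with 0 counts in 3 of the 4 CD_vehicle mice, and the direct interval was −1.05 to 0.99. Abcb4, the phospholipid exporter of the bile canaliculus, had 340 ± 16.8 and 353 ± 19.9 CPM against 211 ± 10.8 CPM in CD_vehicle, and the direct interval was narrow, −0.22 to 0.11.

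Shared falls included transporters and lipogenic genes. Slc10a1, the sodium-dependent bile acid importer, had 205, 255, 386 and 383 CPM in CD_PFOA, 417, 349, 372 and 254 CPM in HFD_vehicle, and 838, 1099, 1098 and 835 CPM in CD_vehicle. The exposures overlapped below control, with a direct interval of −0.61 to 0.25. Acly, which makes cytosolic acetyl-CoA, was below control by −1.93 and −1.71, with a direct interval of −0.91 to 0.47. Hsd3b5, a male-biased steroid dehydrogenase of liver, had 0 to 0.205 CPM and 0.133 to 0.695 CPM, with 34.6, 75.8, 52.6 and 1.45 CPM in CD_vehicle. Slco1a1, an organic anion importer, fell under both but unequally, at 2.03 to 3.92 CPM and 7.01 to 83.3 CPM against 62.3 to 352 CPM. Of the shared genes chosen by the ranking rule, 8 of 10 rises and 7 of 10 falls were called against control on both sides in each leave-out.

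**Figure D5:**
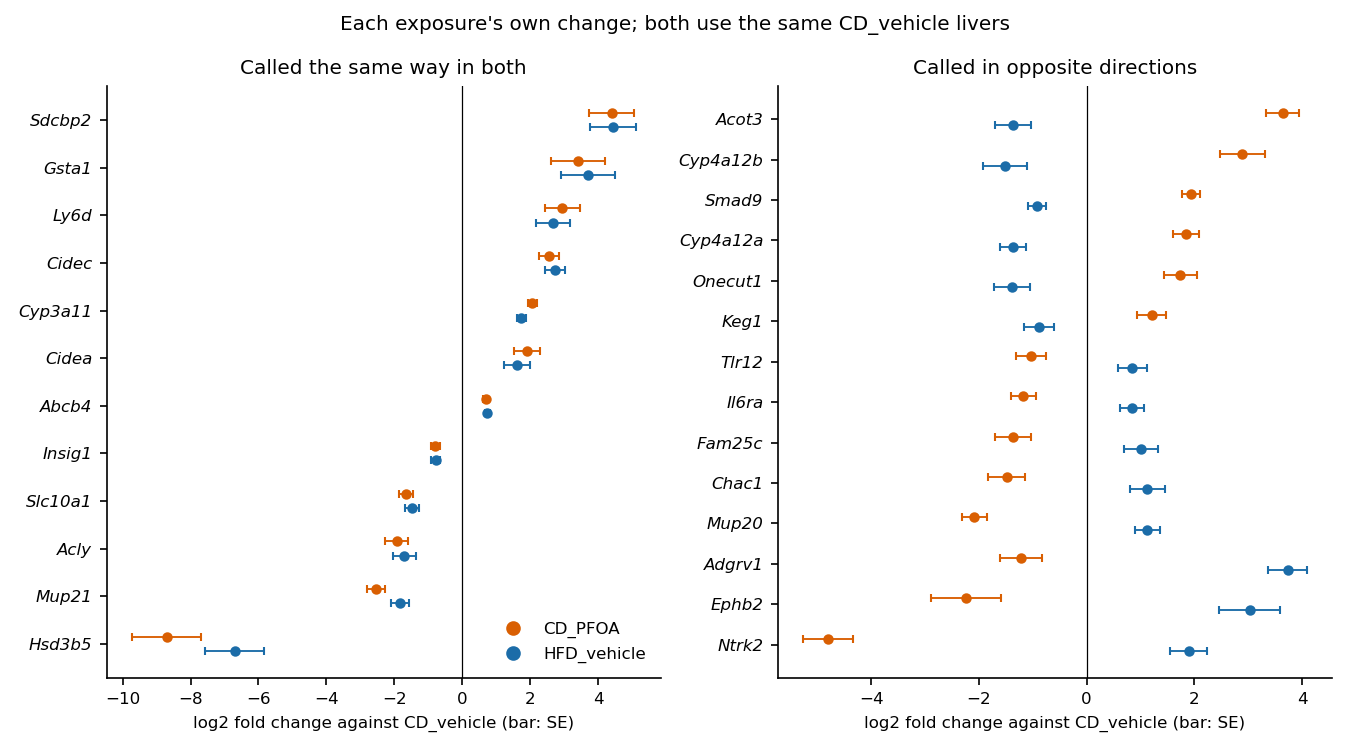
Difference from CD_vehicle (log2, bars SE) of CD_PFOA and of HFD_vehicle for 12 genes called the same way in both and 14 called in opposite directions. For Cidec, Cidea, Ly6d, Sdcbp2 and Abcb4 the 2 marks lie close together, while for Mup20, Ntrk2, Smad9 and Cyp4a12a they lie on either side of 0. Both comparisons use the same 4 control mice.

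Called in opposite directions were 42 genes that rose under PFOA and fell under the diet, 2.38% of the PFOA rises and 5.37% of the diet falls. Another 17 fell under PFOA and rose under the diet, 0.898% of the PFOA falls and 2.18% of the diet rises. The control mice are shared here too, so these counts describe and do not test an opposition. Of the 16 ranked genes, 8 each way, 4 were called on both sides in each leave-out, Cyp4a12a, Smad9, Mup20 and Ntrk2. Smad9, a transducer of BMP signals, had 49.9, 60.5, 45.5 and 36.1 CPM in CD_PFOA, 8.34, 5.31, 5.86 and 6.86 CPM in HFD_vehicle, and 13.1, 13.8, 13.5 and 9.70 CPM in CD_vehicle. The 3 groups did not overlap, and the direct difference was 7.23-fold (2.85 ± 0.17, edgeR adjusted p = 3.93e-10). Cyp4a12a, a male-biased fatty acid hydroxylase, had 663, 602, 794 and 692 CPM, 104, 97.8, 52.9 and 39.8 CPM, and 150, 156, 225.1 and 232.8 CPM in the same order, 9.32-fold apart between the exposures.

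Ntrk2 (chr13:58806569-59133970, plus strand) had 0.0415, 0.994, 0.464 and 0.450 CPM in CD_PFOA, 44.8, 40.6, 41.8 and 75.5 CPM in HFD_vehicle, and 6.00, 18.8, 16.5 and 13.4 CPM in CD_vehicle. The control mice lay between, with no overlap on either side, and the direct difference was 103-fold (−6.69 ± 0.47, edgeR adjusted p = 4.42e-09). Mup20, the urinary pheromone darcin, had 134, 83.8, 67.4 and 136 CPM against 1250, 1039, 596 and 1033 CPM, 9.30-fold lower, with 407, 437, 455 and 494 CPM in CD_vehicle. Major urinary protein genes are near copies of each other, so the reads of Mup20 could be split. Only 3 of the 19 tested were called between the exposures, all lower in CD_PFOA, where 9.62% of all genes were.

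A further 396 genes were higher and 280 lower in CD_PFOA than in HFD_vehicle without being called against CD_vehicle on either side.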

How the data were processed

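RNA of flash-frozen mouse liver, extracted with the Qiagen RNeasy mini kit, was sequenced from non-stranded BGI libraries, per the labels' protocols; reads of overlapping genes on opposite strands therefore cannot be told apart. Per the submitters' processing notes the builds and tools were GRCm38 (mm10), featureCounts of Subread 1.6.0, STAR 2.5.2b, Trimmomatic 0.33 and bcl2fastq 2.20.0.422; these notes name no annotation release. The table deposited by the authors holds raw counts per gene as whole numbers. Each library is 1 mouse and a biological replicate per the series' design, and its group comes from the sample labels.

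Genes were kept by filterByExpr (14998 genes with 99.9% of counts) and scaled by TMM. All 16 libraries entered 1 edgeR 4.0.16 quasi-likelihood fit (R 4.3.3) with a mean per group. The residual degrees of freedom were 12, and the common BCV (the biological coefficient of variation) was 0.242. Benjamini-Hochberg adjustment ran over all genes tested. The SE is the absolute log2 difference divided by the square root of F, and intervals are 95%. Within the 2 exposed groups no pair of libraries agreed within sampling noise (chi-square of 11.8 to 40.7 for each degree of freedom). Without molecular identifiers, floors and counting intervals cover counting error only. The script was tested on simulated data.

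The members and the 43 gene lists (810 entries, 758 tested) were chosen with earlier results of these data known. Named genes are, in the direct comparison, the 10 largest rises and 10 largest falls among called genes with a mean of at least 1 CPM and no overlap between groups. To these come up to 10 shared and 8 opposed genes each way against CD_vehicle, from each list the 4 genes of lowest p in the direct comparison, and 30 index genes. Abcb4, Acly, Creld2, Hmgcs1, Hspa5, Insig1, Lpin1 and Slc10a1 fall outside that rule and were chosen after their values were seen, as were genes named for a promoter match. The 6 motifs were searched on both strands of 300-base RefSeq promoters (GRCm38.p6). Besides the ER stress response element, the CCAAT box and the sterol regulatory element, these were the PPAR response element AGGNCA, 1 base of any kind and AGGNCA (in 0.381% of all promoters, and of the listed genes only in Fabp1 of the other PPARA-responsive genes), its strict form AGGTCA, 1 base and AGGTCA (0.0396%, none of these genes) and the direct repeat AGNTCA, 4 bases and AGNTCA (0.125%, only Cyp3a11). They were sought in 7 gene lists. Alternatives were DESeq2 1.42.0, other size factors, other filters, only the groups compared, and libraries left out. The PFOA plus HFD mice entered the filter on low counts, the scaling and the shared spread, but none of the group means compared. Results for 2 of the index genes are not reported here.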

Additional observations from a re-analysis of the deposited data

Results flagged for a closer look

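Within groups of 4 mice, 24 of 310 sets of values for the 105 genes examined (7.74%) had 1 mouse whose gap to the nearest other mouse took more of the group's range than Dixon's 95% critical value allows; chance gives about 1 in 20. In CD_vehicle replicate 4 these were Sqle at 137.5 CPM (others 11.59 to 28.71), Spp1 at 81.37 (34.99 to 41.11), Lpl at 54.25 (28.39 to 30.12), Col1a1 at 26.61 (8.838 to 10.49), Mmp12 at 6.963 (0.1832 to 1.311) and Gpnmb at 2.179 (0 to 0.281). The same mouse was low in Cyp4a12b at 18.75 CPM (57.96 to 61.68) and Smad9 at 9.697 (13.09 to 13.78). In CD_vehicle replicate 1 they were Hspa5 at 3089 CPM (897.3 to 1178), Pck1 at 2742 (1736 to 1825), Saa1 at 1255 (20.7 to 37.25), C4bp, a complement inhibitor, at 698.3 (492.4 to 520.8) and Creld2 at 245.2 (24.91 to 47.84). CD_vehicle replicate 3 had Sdcbp2 at 0.6557 CPM, with 0 in the others.

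In HFD_vehicle, replicate 4 was high in Lpl at 175.5 CPM (112.3 to 121.7) and Ntrk2 at 75.51 (40.6 to 44.8). Replicate 1 was high in Me1 at 285.4 CPM (176 to 184.2) and Sqle at 4.171 (3.295 to 3.398). Replicate 2 was low in Fabp5 at 1.887 CPM (3.908 to 4.21) and alone had counts of Fabp3, at 0.153 CPM. In CD_PFOA, replicate 1 was high in Pdk4 at 464.5 CPM (269.2 to 295.7) and C4bp at 195.4 (186 to 187.5), and replicate 2 was high in C9 at 110.8 CPM (69.21 to 70.28) and low in Pdia6 at 105 (114 to 115.7). For Lpl, Ntrk2, Sqle, Me1, Pdk4, C9, C4bp and Pdia6 the separation of CD_PFOA from HFD_vehicle held in each of these mice.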

How the results depend on the processing

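In the direct comparison 2307 to 2619 genes were called when each of its 8 libraries was left out in turn (1221 to 1357 higher, 1086 to 1285 lower), against 3012 with all, and DESeq2 called 1762 higher and 1570 lower. Library totals in place of TMM gave 975 higher and 2209 lower. Among the named genes no direct difference reversed in the alternatives run; over genes and alternatives, 3204 results kept their direction and side of the threshold, 67 fell below it and 25 passed it. CD_PFOA against CD_vehicle gave 3072 to 3971 calls in the leave-outs. HFD_vehicle against CD_vehicle moved most: 881 (without HFD_vehicle replicate 4) to 2272 (without CD_vehicle replicate 4), with 448 to 1228 higher and 433 to 1044 lower. It gave 896 calls with only the 2 groups in the fit (490 higher, 406 lower), 2363 without CD_vehicle replicates 1 and 4 (1283 higher), and 2052 higher and 288 lower with library totals. Against CD_vehicle, 3 named genes reversed. Apcs in CD_PFOA was −0.45 to 0.49 in the leave-outs (0.49 without CD_vehicle replicate 1) and 0.72 without replicates 1 and 4. Ighm in CD_PFOA was −1.78 to 1.36 (1.36 without CD_vehicle replicate 4) and 1.30 without both. Saa1 in HFD_vehicle was −2.51 to 1.36 (1.36 without CD_vehicle replicate 1) and 1.55 without both. The cause was not tested. No paired analysis was possible because the animal numbers in the labels are all different and tie no mouse to one of another group.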

Other observations

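Interferon-stimulated genes were lower in CD_PFOA than in HFD_vehicle in 13 of 29 cases and higher in 1, with a median of −0.57; leaving out each of the 8 mice in turn gave 10 to 12 lower and 0 or 1 higher, and the fit without CD_vehicle replicates 1 and 4 gave 19 lower. Irf7, a master regulator of the interferon response, had 13.7, 16.4, 15.2 and 14.5 CPM against 31.0, 31.0, 29.8 and 30.5 CPM, 2.05-fold lower (edgeR, adjusted p = 1.67e-04). Psmb8, a subunit of the immunoproteasome, was 2.14-fold lower (6.24 ± 0.335 against 13.4 ± 1.33 CPM, n = 4, edgeR adjusted p = 5.45e-04). Against CD_vehicle 11 were lower in CD_PFOA. In HFD_vehicle 0 were called by edgeR or DESeq2, with 4 higher and 2 lower at an unadjusted p under 0.05; without CD_vehicle replicate 4, 4 were called higher.

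Of 18 clock genes, 7 were higher and 4 lower in CD_PFOA. Dbp, an output factor of the clock, had 24.4, 42.6, 31.6 and 23.2 CPM against 3.79, 2.499, 5.80 and 4.18 CPM, 7.55-fold higher (edgeR, adjusted p = 9.42e-06), and Arntl, a core activator, was 2.67-fold lower (9.17 ± 1.73 against 24.4 ± 4.09 CPM). The hours at which these livers were taken were not used here, and their part in the result was not tested. Integrated stress response genes went both ways, 6 of 19 higher and 4 lower, the latter 2 without CD_PFOA replicate 4: Trib3, a pseudokinase, was 4.38-fold higher (39.6 ± 8.65 against 9.02 ± 1.67 CPM), and Chac1, which degrades glutathione, was 6.11-fold lower (2.26 ± 1.14 against 13.9 ± 1.16 CPM). Cdkn1a, the cell cycle inhibitor p21, was 3.18-fold lower in CD_PFOA (55.9 ± 13.1 against 178 ± 21.4 CPM). Of 18 p53 targets, 2 were higher in CD_PFOA and 3 lower. Of 27 cell cycle genes, 0 were higher and 2 lower. Over all genes, 10.5% were higher and 9.62% lower. Female-biased liver genes were higher in CD_PFOA in 7 of 15 cases and lower in 1, and Cyp2b9 was 5.87-fold higher (592 ± 51.7 against 101 ± 48.7 CPM). Of 21 male-biased liver genes, 5 were higher in CD_PFOA and 6 lower, with a median of 0.00. Against CD_vehicle, 10 of the male-biased genes were lower and 4 higher in CD_PFOA. In HFD_vehicle 12 were lower (7 to 15 over the leave-outs) and 1 higher. Of 20 lipoprotein genes, 4 were higher in CD_PFOA, where 10.5% of all genes were, and 7 lower, where 9.62% of all genes were. Pltp, the phospholipid transfer protein, was 4.88-fold higher in CD_PFOA (173 ± 27.2 against 35.5 ± 6.31 CPM). Acute phase genes were lower in 9 of 24 cases, but in 3 without HFD_vehicle replicate 2 and likewise in 3 without CD_PFOA replicate 1. Saa1 had 10.4, 22.7, 14.7 and 8.10 CPM against 69.6, 92.4, 67.8 and 79.1 CPM, with no overlap and an adjusted p of 0.0686 by edgeR in the fit that includes CD_vehicle replicate 1.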
